A study of Auxenochlorella pyrenoidosa with 8 samples.

Results

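A small set of genes of strain FACHB-9 of Auxenochlorella pyrenoidosa, a unicellular green alga long known as Chlorella pyrenoidosa, carries more than 1 transcript model in the deposited gene annotation. They were taken as every gene with 2 or more mRNA features, which gave 162 of 10284 gene models (1.58%). Of these, 157 had 2 models and 5 had 3, and together they held 329 models. Levels came from 8 RNA sequencing libraries of whole cells, grown in light for 5 days on 5% CO2 before the culture was bubbled with air. The labels give 0, 1, 4 and 24 h of CO2 deprivation, with 2 libraries at each time. The design text speaks of 2 independent biological experiments, and the labels do not say whether a library number marks an experiment. All groups share the strain and the earlier growth on 5% CO2. No culture kept on 5% CO2 past 0 h was analysed here, so time in culture and the change to air cannot be told apart. All 162 genes were in the level table of 10283 genes, beside 10121 genes with 1 model.

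A eukaryotic gene can give several messenger RNAs when its primary transcript is spliced in different ways. The spliceosome cuts an intron at a donor site on its 5′ side and an acceptor site on its 3′ side, and use of another donor or acceptor makes the neighbouring exon longer or shorter. A whole exon can be skipped, and an intron can be retained. Other transcription starts and other ends with their polyadenylation sites change the first or last exons. Closely spaced acceptors are a known source of proteins that differ by a few amino acids, and retained introns are common among alternative transcripts of plants and green algae.

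The models were predictions of AUGUSTUS, a gene finder, per the file headers. The sources used here do not say whether reads or other evidence guided them. The levels were counted per gene, so no value below belongs to one model of a gene rather than another. A second model is a prediction, and its use in these cells was not measured. The deposited tables identify genes by number alone, so neither roles nor a check of cell type by marker genes can be offered.

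Splice sites were the most common place where models of a gene parted. An alternative acceptor separated the models of 61 of the 162 genes (37.7%), an alternative donor those of 52 (32.1%), a skipped exon those of 25 (15.4%) and a retained intron those of 7 (4.32%). The coding start lay elsewhere in 37 genes (22.8%) and the stop in 34 (21.0%), while the transcript start differed in 30 and the transcript end in 28. A gene can be in several of these classes. A pair of introns that share the acceptor counts as an alternative donor also where the donor belongs to another first exon. In 81 genes (50%) a single kind of difference was found, and these were 43 with an alternative acceptor alone, 19 with an alternative donor alone, 18 with a skipped exon alone and 1 with another change of an intron. The coding start and stop positions were shared by the models of 92 genes (56.8%). The start differed in 35, the stop in 33 and both in 2. These last counts also take coding ends where a model lacks a stop codon, which the 34 above leave out.

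All 162 genes had models that differ in their coding segments, and for most the difference was short. The coding lengths of a gene's longest and shortest model differed by a median of 70.5 bp (quartiles 18 and 256 bp, range 3 to 4566 bp), which was a median of 4.33% of the longer one. The difference was at most 30 bp in 54 genes (33.3%), over 300 bp in 33 (20.4%) and exactly 3 bp, 1 codon, in 15. Models of a gene shared a median of 93.5% of their coding bases (quartiles 77.4% and 98.4%). In 74 genes (45.7%) they shared at least 95%, in 15 under 50%, and in 2 genes, g4303 and g6821, with 3 models each, no coding base was common to all models. Every coding length difference was a multiple of 3 bp. In the 156 genes whose models all have a start and a stop codon this is built in, because each coding length is then a whole number of codons.

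Acceptor pairs lay close together and donor pairs far apart. The 62 alternative acceptors had a median distance of 15 bp (quartiles 5.25 and 33 bp, range 3 to 973 bp), and 14 of them (22.6%) lay exactly 3 bp apart. The 53 alternative donors had a median distance of 72 bp (quartiles 31 and 126 bp, range 3 to 2323 bp), and 1 pair lay 3 bp apart. At most 30 bp separated 45 of the acceptor pairs (72.6%) and 13 of the donor pairs (24.5%). Distances divisible by 3 made up 44 of the 49 acceptor pairs (89.8%) in genes whose coding start and stop are shared, and 20 of the 27 donor pairs (74.1%) in such genes. The 26 skipped exons were 12 to 276 bp long with a median of 70.5 bp, and 21 had a length divisible by 3. Where coding start and stop are shared and the coding part differs at a single place, a size divisible by 3 is built in. These counts are therefore no finding about splicing. Of a gene cut into 3 equal stretches, the 5′ stretch held 12 of the skipped exons, the middle 11 and the 3′ stretch 3. The 9 retained introns in 7 genes were 43 to 160 bp long. Coding starts, where they differed, lay a median of 840 bp apart and stops 635 bp apart.

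**Figure D1:**
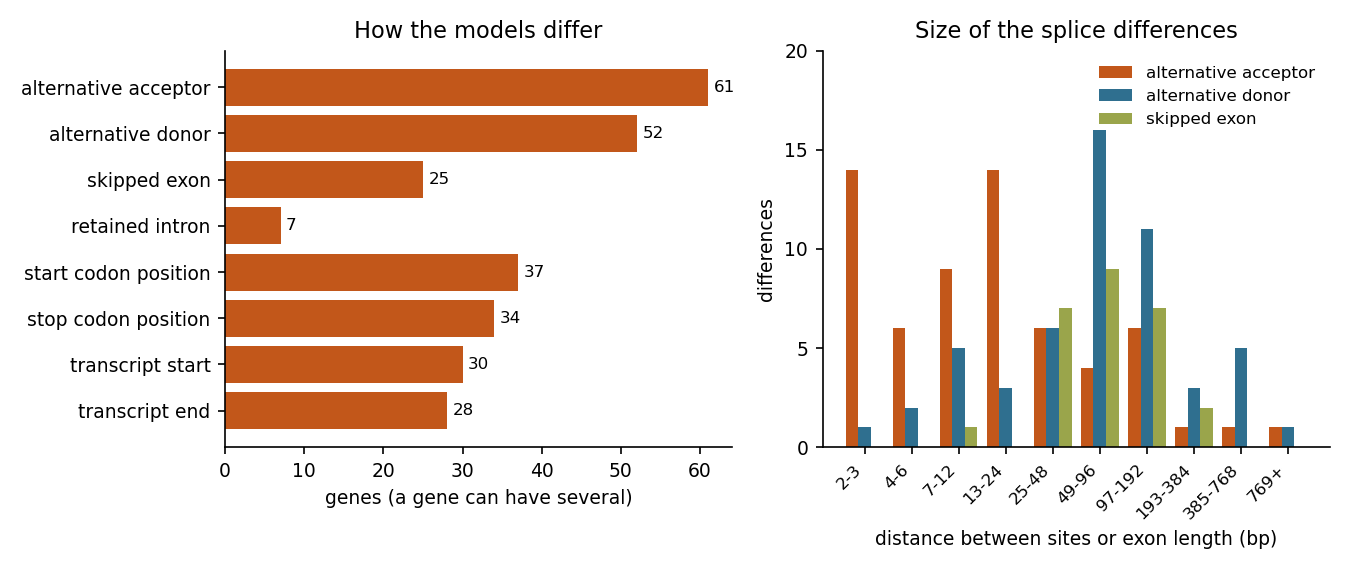
Left: number of genes in which the transcript models differ in each way, with the count beside each bar. Right: number of differences by size in bp for alternative acceptors, alternative donors and skipped exons. The 14 acceptor pairs that lie 3 bp apart form the bar at 2-3 bp, where there is 1 donor pair, and 45 of the 62 acceptor pairs but 13 of the 53 donor pairs are at most 30 bp apart.

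The most strongly expressed gene of each kind shows what these differences look like. RPKM here is the reads of a gene per kilobase of its span, introns included, scaled to the library's total of reads counted in genes. Among acceptor genes it was g10043 (scaffold01295, 65666 to 66720, plus strand), with 3 coding exons and coding lengths of 423 and 420 bp, whose acceptors lie 3 bp apart. Its level was 370 and 273 RPKM after 0 h, 335 and 303 after 1 h, 468 and 508 after 4 h, then 326 and 276 after 24 h. It had the highest mean level of the 162 genes and ranked 142 of 10283. Its libraries at 4 h were above all others, but the difference from 0 h did not pass the test (488 ± 28.5 RPKM at 4 h and 322 ± 68.5 RPKM at 0 h, SD, n = 2 each, log2 fold change 0.62, SE 0.22, limma adjusted p = 0.107).

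Among donor genes the highest was g6776 (scaffold00992, 419643 to 423637, plus strand), with 14 coding exons and coding lengths of 1521 and 1416 bp. Its models differ by donors 17 bp apart and, further on, by an intron of 238 bp in one model and 326 bp in the other with both ends moved. It ranked 158 of all genes by mean level. Among skipped-exon genes it was g5055 (scaffold00704, 21804 to 24530, minus strand). There an exon of 73 bp that holds the stop codon of one model is left out of the other, which ends its reading frame 229 bp away, and the coding lengths are 381 and 387 bp. It had 53.1 and 61.8 RPKM after 0 h, 76.8 and 51.8 after 1 h, 53.6 and 57.0 after 4 h, then 57.2 and 96.9 after 24 h. Its libraries at 4 h lay within the range of those at 0 h. Those at 24 h, where the spread was widest, began at 57.2 RPKM, just above the 57.0 at 4 h. The gene was not called between these times.

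Among retained-intron genes the highest was g9727 (scaffold01246, 1032715 to 1039379, plus strand). One of its models starts 1840 bp further in and has 1887 coding bp, and the other has 2928. An intron of 121 bp in the longer model is exon in the shorter. An intron of 43 bp in the shorter model is exon in the longer. Levels were 17.4 and 16.2 RPKM after 0 h, 13.1 and 14.4 after 1 h, 9.40 and 12.2 after 4 h, then 9.84 and 13.1 after 24 h. Both libraries at 4 h were below both at 0 h, and the difference did not pass the test (log2 fold change -0.60, SE 0.21, limma adjusted p = 0.093).

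Genes with another coding start were led by g8651 (scaffold01168, 1545416 to 1551029, minus strand; 16 coding exons, 2004 and 2055 bp). Its coding starts lie 310 bp apart, and 1 model has a further exon at its 5′ end. It had 283 and 356 RPKM after 0 h, 383 and 374 after 1 h, 337 and 353 after 4 h, then 396 and 99.4 after 24 h, so 1 of the 8 libraries, the second labelled 24 h, stood far below the rest. Genes with another stop were led by g852 (scaffold00066, 377152 to 382446, plus strand), whose models end 1150 bp apart and encode 1938 and 1461 bp. It had 317 and 390 RPKM after 0 h, 319 and 189 after 1 h, 230 and 227 after 4 h, then 151 and 255 after 24 h. Its 4 h libraries were below those at 0 h without passing the test (log2 fold change -0.62, SE 0.33, limma adjusted p = 0.239).

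**Figure D2:**
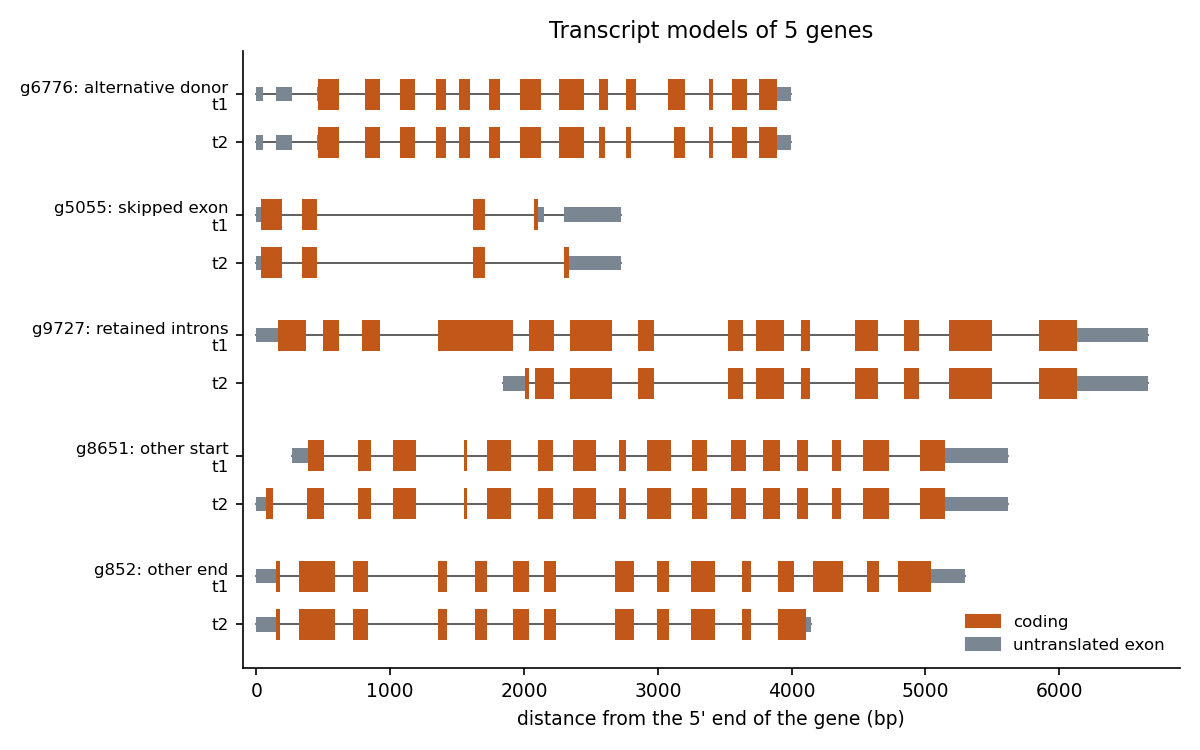
Transcript models of 5 genes drawn to scale from the 5′ end of each gene in bp, with coding exon as tall boxes, untranslated exon as low boxes and introns as lines. The models of g6776 differ around 2 introns, g5055 skips an exon of 73 bp near its 3′ end, g9727 begins 1840 bp further in, and the models of g852 end 1150 bp apart.

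The gene with 3 models and the highest level was g3658 (scaffold00479, 13046 to 18728, plus strand; coding lengths 1737, 1740 and 1806 bp), at 29.9 and 30.7 RPKM at 4 h and 33.3 and 31.2 RPKM at 0 h. The difference of median size belonged to g9753 (scaffold01246, 1163233 to 1174526, minus strand), where donors 69 bp apart give 2448 and 2517 coding bp over 28 coding exons. Its mean was 0.605 RPKM, and its libraries of a single time point differed widely, at 0.150 and 1.70 RPKM at 24 h. The largest coding difference, 4566 bp, was that of g845 (scaffold00066, 313308 to 325919, plus strand), with coding lengths of 543 and 5109 bp and 10.5% of coding bases shared. It had 2 to 18 reads in a library. The gene with the lowest level, g356, with a skipped exon of 165 bp, had 1 read in each of 2 libraries and 0 in the other 6. The genes with the largest and the median coding difference thus lay below the level of 1 RPKM used for the tests.

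Genes with more than 1 model were longer and had more exons than genes with 1 model. The median number of coding exons, counted in the first model, was 9.5 against 7, the coding length 1404 against 1035 bp and the gene span 4474 against 3020.5 bp. The share of genes with more than 1 model was 0 of 141 among genes with 1 coding exon, 0.774% (18 of 2325) with 2 to 4, 0.920% (19 of 2066) with 5 to 6, 1.98% (44 of 2222) with 7 to 9, 1.75% (28 of 1601) with 10 to 13 and 2.75% (53 of 1929) with 14 or more. A gene with no intron cannot have most of these differences. The introns themselves were of similar length, with a median per gene of 203 bp against 212.5 bp, and they took a median of 56.7% of the gene span against 55.3%. Untranslated regions had medians of 75.5 against 65 bp at the 5′ end and 157.5 against 133 bp at the 3′ end.

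Completeness also differed. A start and a stop codon were present in the models of 156 of the 162 genes (96.3%), against 8745 of 10122 genes with 1 model (86.4%). The prediction score of the first model had a median of 0.10 against 0.11. The gene score was the sum of the scores of its models within 0.011 in all 10284 genes, and the score of the first model was above that of the second in 80 genes, below it in 65 and equal in 17. The first model had the longest coding length in 82 genes (50.6%), so its number does not mark the longest product.

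The 162 genes were spread over the assembly. They lay on 49 of 1231 scaffolds, 75 on the plus strand and 87 on the minus strand, with 12 on the scaffold that held most. On the 27 scaffolds with at least 100 genes, their share had a median of 1.66% and reached 3.26%, and 1 such scaffold had none. In 3 cases the next gene on the scaffold was one of them too. Of the 162 genes, 3 overlapped a neighbouring model (1.85%), against 18 of 10122 genes with 1 model (0.178%), and reads of overlapping genes cannot be told apart here.

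Before the levels, the libraries have to be described. Reads assigned to genes, recovered from the values as below, were 16706278 to 35463138 per library, and the 162 genes took 1.50% to 1.81% of them, with a median of 579 to 1305 reads per gene. Over these genes the pair of 4 h libraries had a correlation of 0.995, and the libraries labelled 1 h number 2 and 24 h number 1 one of 0.994. Within the 1 h label the correlation was 0.956, and within the 24 h label 0.935. A library labelled 1 h was thus closer to one labelled 24 h than to its own replicate. In turn, 24 h number 2 was closest to 1 h number 1, at 0.973. The library labelled 0 h number 2 was also closer to 1 h number 1, at 0.980, than to the other 0 h library, at 0.966. Every value here, including the comparison of 4 h with 0 h, rests on the labels as given. These are correlations of log2(RPKM + 1) over genes, which are not independent.

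Genes with more than 1 model had lower levels per kilobase of span. Their mean RPKM over the 8 libraries had a median of 9.09 (quartiles 2.39 and 21.6, range 0.00854 to 357), against 11.8 in genes with 1 model (quartiles 3.98 and 30.6, highest 13568). The ratio of the medians was 0.773, and it was 0.674 to 0.802 in the 8 libraries taken singly. Above 100 RPKM stood 6 of the 162 genes (3.70%), against 714 of 10121 (7.05%). Because the deposited RPKM counts introns as length, it was also computed per kilobase of exon, where the medians were 21.6 and 27.0 RPKM. No test was run on this difference, since the genes differ in exon number as well.

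Exon number went along with level. Among genes of 10 or more coding exons, the median was 4.88 RPKM with more than 1 model and 5.81 with 1 model, and per kilobase of exon 15.8 and 15.4. Among genes of 5 to 9 coding exons the medians were 12.8 and 13.4 RPKM, or 24.6 and 31.8 per kilobase of exon. Among those of 1 to 4 they were 18.2 and 23.2 RPKM, or 30.3 and 44.1 per kilobase of exon. The lower level was thus seen in each class per kilobase of span, and per kilobase of exon in the classes below 10 exons. When all genes were put in 5 bins of equal size from the lowest to the highest mean RPKM, 2.28%, 1.41%, 1.41%, 1.75% and 1.02% had more than 1 model.

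**Figure D3:**
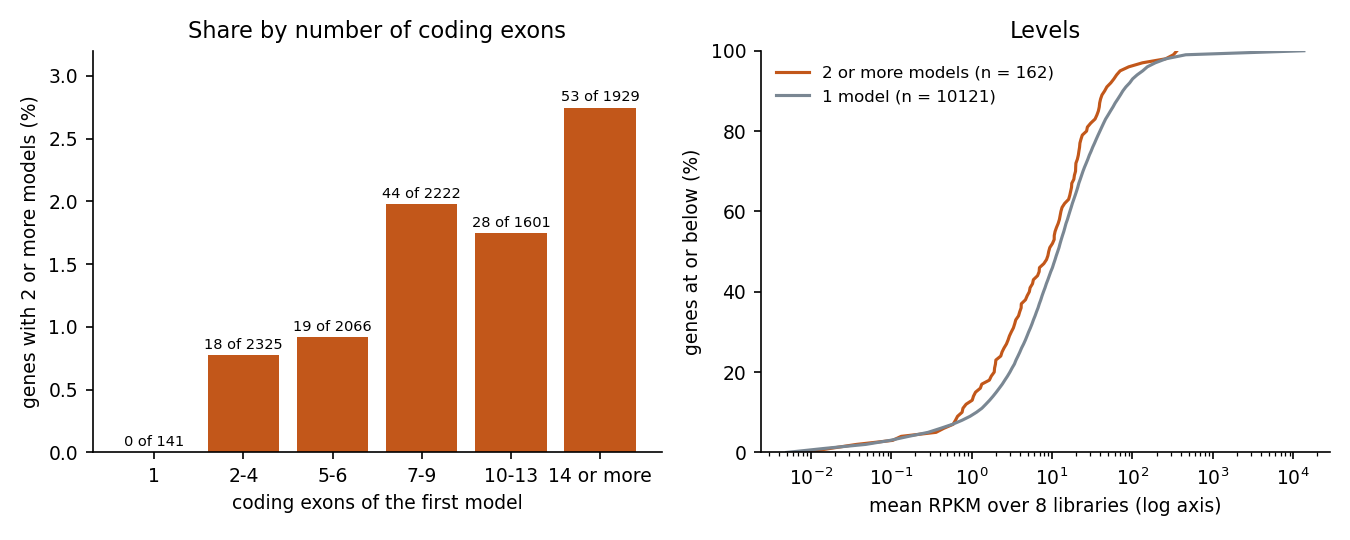
Left: share of genes with 2 or more models, in percent, by the number of coding exons of the first model, with counts over the bars. Right: percent of genes at or below a mean RPKM (log axis) for genes with 2 or more models and genes with 1, where the first curve reaches 50% at 9.09 RPKM and the second at 11.8 RPKM.

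Level also differed by kind of difference, most clearly among genes with a single kind. Genes with an alternative acceptor alone had a median of 12.5 RPKM and those whose coding lengths differ by 3 bp 21.9 RPKM, while genes with an alternative donor alone had 1.77 and those with a skipped exon alone 2.87 RPKM. Over all genes with a kind, alone or beside others, acceptor and donor genes lay closer. Medians were 9.45 RPKM with an acceptor (61 genes), 7.59 with a donor (52) and 3.53 with a skipped exon (25). Genes with a retained intron had a median of 2.24 RPKM, over 7 genes. These medians are descriptions of small groups that differ in exon number. The median number of coding exons was 8 with an acceptor alone, 10 with a donor alone and 17 with a skipped exon alone.

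For the tests over time, 141 of the 162 genes (87.0%) had a mean of at least 1 RPKM, against 9185 of 10121 genes with 1 model (90.8%). Of the 21 left out, 15 were below 1 RPKM in every library. The gene just outside was g210 with a mean of 0.985 RPKM and the gene just inside g4885 with 1.02 RPKM. Tests were limma fits of log2(RPKM + 1) over all 9326 tested genes, and calls were made at an adjusted p under 0.05 by the Benjamini-Hochberg method. In cultures of whole cells, a change in RNA per cell and a change in the share of cells that hold it cannot be told apart.

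After 4 h in air, 5 of the 141 tested genes rose and 11 fell against 0 h. The 16 calls are 11.3% of these genes, beside 12.1% of all tested genes, so the share was near the background. By direction, 3.55% rose, beside 2.16% of all tested genes, and 7.80% fell, beside 9.97% (limma, adjusted p under 0.05). The groups did not overlap in any of the 16, which adds no support, since the test on the same values picked these genes. The median log2 fold change was -0.12 over the 141 genes and -0.20 over all tested genes, with quartiles of -0.47 and 0.21 against -0.55 and 0.14. After scaling by a trimmed mean of log ratios these medians were 0.04 and 0.00, and 6 genes rose and 5 fell. Without that scaling but with the replicate number as a block, 2 rose and 6 fell (5.67%, beside 8.90% of all tested genes). By quantile normalization 7 rose and 3 fell, and by voom on recovered reads 7 rose and 7 fell. Over all tested genes the balance shifted too, with 201 that rose and 930 that fell as deposited, 297 and 419 by the trimmed mean, 256 and 359 by quantile normalization and 282 and 414 by voom. Most calls were lost without 0 h library 1, and all without either 4 h library, as were most of those over all tested genes. Without 0 h library 1 the median log2 fold change was -0.08 over the 141 genes, beside -0.15 over all tested genes. It was -0.11 beside -0.19 without 4 h library 1, and -0.16 beside -0.20 without 4 h library 2.

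The genes that rose had log2 fold changes of 0.82 to 1.50, and 4 of the 5 differ by an alternative acceptor alone. Of the 141 tested genes, 37 are of that kind, and 3 of these fell. The counts are small, and no test tied this kind to a rise. The largest rise was that of g151 (scaffold00012, 672419 to 683583, plus strand), a gene of 19 coding exons whose acceptors 3 bp apart give coding lengths of 4023 and 4026 bp. Its level was 7.35 and 15.1 RPKM after 0 h, 17.8 and 26.6 after 1 h, 32.9 and 30.7 after 4 h, then 28.4 and 18.4 after 24 h. Both 4 h libraries were the highest of the 8 and both 0 h libraries the lowest. It averaged 31.8 ± 1.58 RPKM at 4 h and 11.2 ± 5.46 RPKM at 0 h (SD, n = 2 each). The log2 fold change was 1.50, with an SE of 0.36 and a limma adjusted p of 0.037. Without 0 h library 1 it was 1.03, no longer called (limma adjusted p = 0.19), and without a 4 h library it was 1.45 or 1.55 (limma adjusted p = 0.199 and 0.195).

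The other leading rise was that of g10138 (scaffold01327, 119827 to 124360, minus strand; 14 coding exons, 1338 and 1320 coding bp), with acceptors 18 bp apart. It had 13.0 and 17.6 RPKM after 0 h, 22.2 and 16.3 after 1 h, 41.3 and 40.3 after 4 h, then 13.6 and 15.9 after 24 h. Only its 4 h libraries stood apart from the rest of the 8. It averaged 40.8 ± 0.753 RPKM at 4 h and 15.3 ± 3.26 RPKM at 0 h (SD, n = 2 each; log2 fold change 1.37, SE 0.22, limma adjusted p = 0.013). The call was lost without 0 h library 1 (log2 1.17, limma adjusted p = 0.086) and without either 4 h library (limma adjusted p = 0.124 and 0.118).

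The remaining rises included the donor gene g6776, with 562 and 531 RPKM at 4 h against 213 and 243 RPKM at 0 h (log2 fold change 1.26, SE 0.23, limma adjusted p = 0.019). It held 224 and 302 RPKM at 1 h and 294 and 229 at 24 h, below both 4 h libraries. The acceptor gene g6281 had 23.7 and 19.5 RPKM at 4 h against 8.84 and 11.6 RPKM at 0 h, and its 24 h libraries, at 21.9 and 19.6 RPKM, were near those at 4 h. The smallest rise was that of g705, with acceptors 6 bp apart, at 8.11 and 8.81 RPKM at 4 h against 3.91 and 4.85 RPKM at 0 h. The last 2 are named, after their values were seen, to complete the 5.

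The genes that fell had log2 fold changes of -0.58 to -2.12. After the added 1 RPKM the largest fall was that of g5315 (scaffold00734, 358073 to 362896, minus strand), with 12 coding exons, donors 107 bp apart, stops 14 bp apart and coding lengths of 1758 and 1851 bp. Its level was 22.0 and 55.0 RPKM after 0 h, 33.4 and 39.9 after 1 h, 6.72 and 7.86 after 4 h, then 34.6 and 42.9 after 24 h. The 4 h libraries lay far below the other 6, and the 0 h libraries differed from each other by more than the rest did. It averaged 7.29 ± 0.811 RPKM at 4 h and 38.5 ± 23.4 RPKM at 0 h (SD, n = 2 each). Its log2 fold change was -2.12, with an SE of 0.38 and a limma adjusted p of 0.018. Without a 4 h library the call was lost (limma adjusted p = 0.137 and 0.119), and over the libraries left out in turn the log2 fold change lay between -2.76 and -1.47.

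Next was g8689 (scaffold01179, 1 to 3450, plus strand; 8 coding exons, 1213 and 1189 coding bp), with donors 24 bp apart. Its models begin at the first base of the scaffold and have no start codon, so the gene is cut by the scaffold's end. It had 3.26 and 3.50 RPKM after 0 h, 1.29 and 2.17 after 1 h, 0.251 and 0.270 after 4 h, then 2.08 and 1.36 after 24 h. The 4 h values rest on 16 and 33 reads. Its 4 h libraries were the lowest and its 0 h libraries the highest of the 8. It fell by more than g5315 with a pseudocount of 0.1 RPKM (-3.27 against -2.24 on the log2 scale), per kilobase of exon (-2.36 against -2.19) and by voom (-3.45 against -2.02). It averaged 0.260 ± 0.0134 RPKM at 4 h and 3.38 ± 0.168 RPKM at 0 h (SD, n = 2 each). After the added 1 RPKM its log2 fold change was -1.80 (SE 0.21, limma adjusted p = 0.0048), and without a 4 h library the adjusted p was 0.060 and 0.056 in limma.

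The other 9 genes that fell, with log2 fold changes of -0.58 to -1.31, differ at acceptors, donors, skipped exons, retained introns, starts and stops. They include g7289, with acceptors 12 bp apart, at 4.80 and 5.78 RPKM at 4 h against 15.3 and 13.9 RPKM at 0 h. The gene g1445 skips an exon of 126 bp and had 13.1 and 15.7 RPKM at 4 h against 25.7 and 29.5 RPKM at 0 h. In g9705, with a retained intron of 103 bp, the values were 6.46 and 5.39 RPKM at 4 h against 14.7 and 11.2 RPKM at 0 h. As in all 16 called genes, the libraries of these 3 at 4 h and 0 h did not overlap. That adds no support, since the test on the same values picked these genes. In g6907, whose starts lie 1489 bp apart and which shares 30.6% of its coding bases, the level was 6.92 and 7.11 RPKM at 4 h against 21.2 and 13.2 RPKM at 0 h. These 4 genes were chosen after their values were seen.

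**Figure D4:**
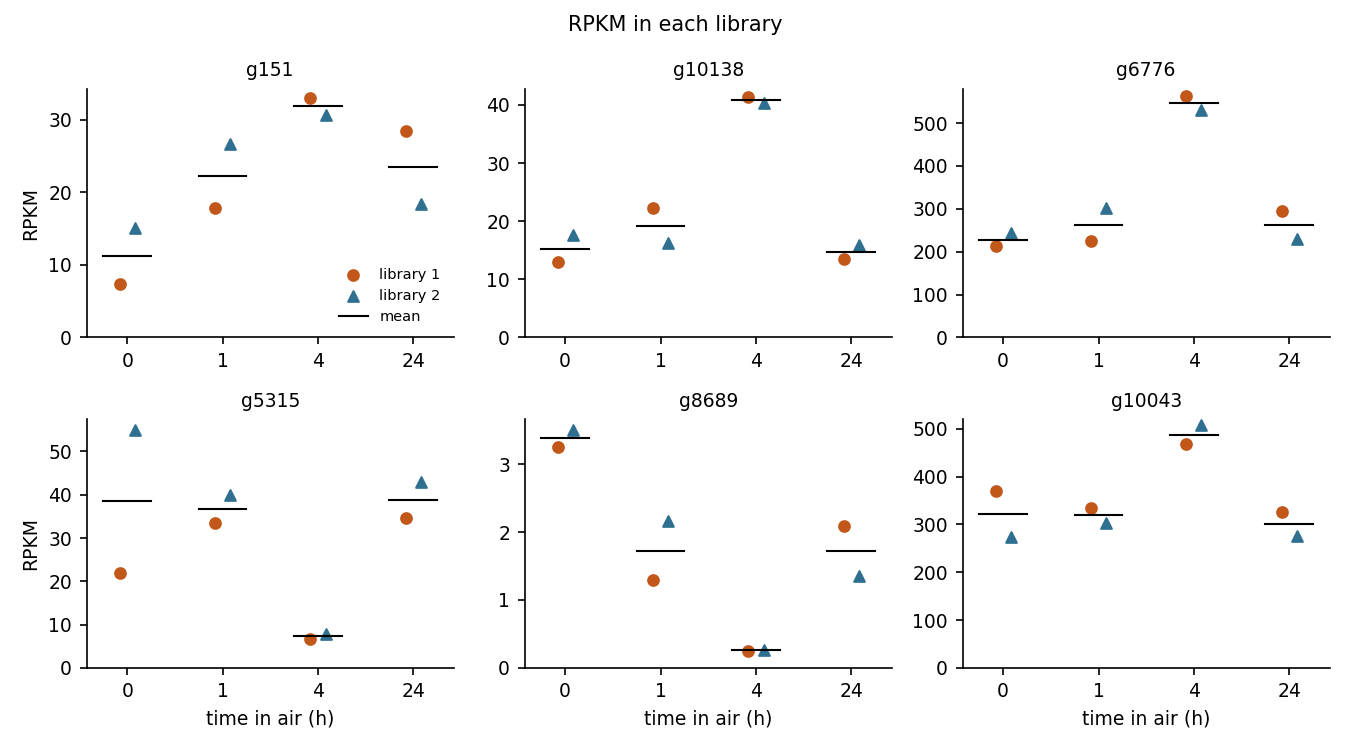
RPKM of 6 genes in each of the 8 libraries by time in air (0, 1, 4 and 24 h), with circles for library 1, triangles for library 2 and a bar at the mean of 2. The 4 h libraries of g151, g10138 and g6776 lie above their 0 h libraries, those of g5315 and g8689 below, and g10043, which did not pass the test, is shown as the gene with the highest mean level.

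By kind of difference, the calls at 4 h were few. Of genes with an alternative acceptor, 54 were tested, 4 rose and 4 fell, and of those with an alternative donor, 42 were tested, 1 rose and 5 fell. A skipped exon gave 22 tested genes, 0 that rose and 1 that fell, a retained intron 6 with 1 that fell, another coding start 35 with 3 that fell, and another stop 32 with 2 that fell. Of the 75 tested genes with shared start and stop, 5 rose and 6 fell, and of the 66 others 0 rose and 5 fell, where all tested genes had 2.16% that rose and 9.97% that fell. No test of these differences between kinds was run. A large but uncalled change was that of g6242, whose 0 h libraries lay far apart. In g6242 the level was 3.53 and 4.06 RPKM at 4 h against 8.40 and 29.0 RPKM at 0 h (log2 fold change -1.81, SE 0.58, limma adjusted p = 0.087). It was picked after its values were seen, as the largest change without a call.

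**Figure D5:**
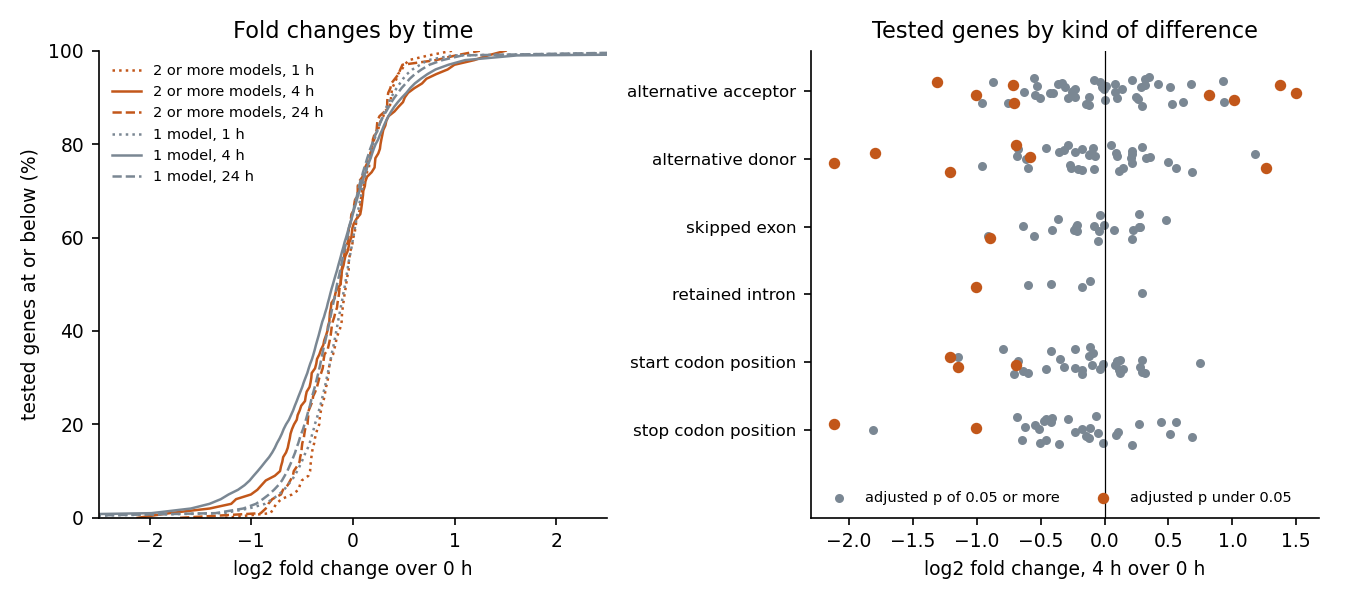
Left: percent of tested genes at or below a log2 fold change over 0 h at 1, 4 and 24 h, for genes with 2 or more models (n = 141) and genes with 1 (n = 9185). Right: log2 fold change of each tested gene at 4 h over 0 h by kind of model difference (a gene can be in several rows; vertical scatter is only for display), with the 16 called genes as large points, 5 to the right of 0 and 11 to the left.

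At 1 h and at 24 h none of the 141 genes was called against 0 h, and limma called 0% of all tested genes at both times. At an unadjusted p under 0.05 there were 11 of the 141 genes at 1 h and 19 at 24 h in limma, beside 953 and 1716 of all tested genes. The voom test on recovered reads also called 0. The smallest adjusted p over these genes was 0.452 at 1 h and 0.210 at 24 h in limma. Their median log2 fold change was -0.07 at 1 h, beside -0.08 over all tested genes, and -0.12 at 24 h, beside -0.16. These comparisons and that at 4 h share the 0 h libraries. Each library labelled 1 h or 24 h was closer to one of the other label than to its own replicate. The absence of calls therefore does not show that levels were unchanged at these times.

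Between the later times, 24 h against 4 h gave 1 call among the 141 genes (0.709%), where 0.697% of all tested genes were called (0.322% rose and 0.375% fell). It was g10138, which fell to 14.7 ± 1.62 RPKM at 24 h, against 40.8 ± 0.753 RPKM at 4 h (SD, n = 2 each; log2 fold change -1.41, SE 0.22, limma adjusted p = 0.046). The call was lost in 15 of 18 alternative settings, with log2 fold changes between -1.55 and -1.31, among them without any single library (limma adjusted p up to 0.480). At 4 h against 1 h none of these genes was called, beside 0.407% of all tested genes (0.172% rose and 0.236% fell). The smallest adjusted p was 0.064 in limma, and 19 of these genes were under an unadjusted p of 0.05, beside 1234 of all 9326. Of these genes voom called 0, beside 24 of all tested genes. The F test over the 3 times against 0 h called g8689 (limma adjusted p = 0.029) and g10138 (limma adjusted p = 0.048), 2 of 141 genes (1.42%) beside 1.82% of all tested genes (0.558% with a rise as the largest change and 1.27% with a fall), and it called neither when any library of 0 h or 4 h was left out.

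Over the 4 times, the course of the 141 genes was close to that of the 9185 tested genes with 1 model. Their mean level was highest at 0 h in 48.2%, at 1 h in 12.8%, at 4 h in 26.2% and at 24 h in 12.8%, against 49.6%, 15.0%, 22.2% and 13.2% of genes with 1 model. It was lowest at 0 h in 22.0%, at 1 h in 8.51%, at 4 h in 44.0% and at 24 h in 25.5%, against 22.9%, 7.54%, 44.7% and 24.9%. The range between the highest and the lowest time point had a median of 0.46 on the log2 scale, against 0.49. It passed 1 in 15 genes (10.6%), against 1242 (13.5%), and the widest was 2.26, against 7.54. The median SD between the 2 libraries of a time point was 0.166, 0.137, 0.078 and 0.203 at 0, 1, 4 and 24 h, against 0.201, 0.169, 0.082 and 0.219 in genes with 1 model.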

How the data were processed

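The deposited table holds RPKM values, in 1 column per library, per the file headers. TopHat and HTSeq are named in the submitters' processing notes, while versions, settings and strand use stay unnamed in those notes and the labels. Multiplied by gene span (end minus start) and library scale, the values gave whole reads within 0.01 reads for 100% of values in every library, so the authors' length is the gene span with introns. The AUGUSTUS gene models carry a prediction score for each feature, as the authors deposited it, and positions counted from 1. No header or label names the assembly.

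Introns were taken as gaps between exons and compared between the models of each gene. From the deposited values, log2(RPKM + 1) was fitted in limma 3.58.1 (R 4.3.3) over 8 libraries in 4 groups of 2, with trend and robust moderation (residual degrees of freedom 4, prior 3.63 in the median). The 9326 genes whose mean reached 1 RPKM were tested, two-sided, with Benjamini-Hochberg adjustment over all of them. Fold changes after the added 1 RPKM understate those of low genes. RPKM per kilobase of exon used the union of a gene's exons. Scripts were tested on simulated data. Libraries rather than reads set the precision of all comparisons.

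Alternatives changed the pseudocount, filter, scaling (quantile normalization, or a trimmed mean of log ratios that drops 30% at each end by ratio and 5% by level), length, moderation, groups in the fit, replicate block, test (voom on recovered reads), the genes counted and each library in turn. The text names, for each comparison, up to 2 called genes each way with the largest change and no overlap, the gene with the highest level of each common kind, the one with most models, those with the largest and the median coding difference, and those with the highest and lowest levels. Other genes were named after their values were seen. The genes and lists were chosen with earlier results of these data known.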

Additional observations from a re-analysis of the deposited data

Results flagged for a closer look

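By the test of 24 h against 4 h itself, limma called 0.697% of all tested genes. In 1 of the 141 tested genes with more than 1 model (0.709%), the change from 0 h differed between these times. This is g10138, with acceptors 18 bp apart, which had 13.6 and 15.9 RPKM at 24 h against 41.3 and 40.3 RPKM at 4 h (log2 fold change -1.41, SE 0.22, limma adjusted p = 0.046). Its change from 0 h was -0.04 at 24 h and 1.37 at 4 h on the log2 scale. The call at 24 h against 4 h was lost in 15 of 18 alternative settings. The library labelled 24 h number 1 was closest to one labelled 1 h, and at 1 h the gene had 22.2 and 16.3 RPKM, also below both 4 h libraries. The part of the labels in this difference, and an exchange of labels, were not tested.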

How the results depend on the processing

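Limits come first from the design. With 2 libraries per time point the spread is pooled over all 4 times, and where a library was left out the lone one was assumed to vary like the others. Counts per gene cannot show which model is used. At 4 h against 0 h, the 16 calls (12.1% of all tested genes were called) became 10 by quantile normalization (7 rose, 3 fell; 6.59% of all), 27 when the fit held no other libraries than those of 0 h and 4 h (7 rose, 20 fell; 20.2% of all) and 8 with the replicate block (2 rose, 6 fell; 8.90% of all), and leaving out single libraries gave 0 to 21. Of the 16 genes, 8 were among the 10, 16 among the 27 and 8 among the 8. With the block g151 was not called (limma adjusted p = 0.057). Calls at 1 h and at 24 h against 0 h were 0 in every setting run. Over all tested genes 1 was called at 24 h with only the groups compared, and a few were called with some libraries left out. At 4 h against 1 h there was 1 call with a pseudocount of 0.1 RPKM (79 of all tested genes) and 0 in the other settings. At 24 h against 4 h, the 1 call (65 of all tested genes) became 3 with that pseudocount (89), 2 with a filter at 5 RPKM (68) and 2 per kilobase of exon (79). It became 0 with no filter (12), trimmed-mean scaling (53), quantile normalization (23) or no trend (22). It was also 0 with only the groups compared (0), the replicate block (0) or voom (32). With a library left out the count did not rise, and that over all tested genes fell each time. The 2 calls of the F test (170 of all) became 1 with no filter (138) or the filter at 5 RPKM (134). They also became 1 by trimmed-mean scaling (117), no trend (134) or voom (102). They became 0 by quantile normalization (79) and with the replicate block (33). With a library left out the count fell or rose, as did that over all tested genes. The replicate numbers were not taken to pair the libraries, since not every pair of groups passed 0.1. That rule does not settle whether the 0 h and 4 h libraries are paired. Deviations of same-numbered libraries correlated at 0.35 for 0 h with 4 h and at -0.73 for 1 h with 24 h. The other pairs of groups gave 0.01, 0.09, 0.11 and 0.16. At 4 h against 0 h, g151, g10138, g5315 and g8689 kept their direction in each setting run for them, and other named genes were not recomputed singly. The ratio of median levels was 0.799 per kilobase of exon and 0.752 among genes of 5 or more coding exons, beside 0.773. The cause of these changes was not tested.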
